A study of Bos taurus with 11 samples.

Results

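Ribosomal protein genes encode the proteins of the cytoplasmic ribosome, and 69 of them were followed in the developing mammary gland of calves fed at contrasting rates. Members were taken by gene symbol. Each is a probe set with exactly 1 symbol of the form RPL or RPS plus a number, with an optional suffix, or is RPSA, RPLP0, RPLP1 or RPLP2. Where a gene had several such probe sets, the brightest on average across the 11 arrays was used. The rule gave 69 genes, 43 of the large and 26 of the small subunit, out of 18444 genes with a single-symbol probe set. These 69 genes had 88 probe sets among the 26773 of the array.

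The samples were mammary parenchyma, the epithelial ducts with their surrounding stroma, from female Holstein heifer calves killed at 54 ± 2 days. Elevated calves (n = 6) drank 6 to 12 L of milk replacer per day over 3 meals, with a mean intake of 5.9 ± 0.2 (SE) Mcal of metabolizable energy per day in 8.4 L. Restricted calves (n = 5) drank 4 L per day over 2 meals, for 2.8 ± 0.2 Mcal per day. Meal number differed with the amount fed and cannot be told apart from it. Starter grain was offered to both groups from day 18. A further restricted calf had too little parenchyma to dissect from its fat pad, so the group lacks its least developed gland.

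A ribosome is built from a small subunit, which reads the mRNA, and a large subunit, which joins amino acids and releases the chain through an exit tunnel. Cells make the ribosomal proteins in near-equal amounts. Their mRNAs begin with a tract of pyrimidines, the 5′ TOP motif, through which nutrient signalling by the kinase complex mTORC1 sets how strongly they are translated. Much of that control acts on translation and leaves mRNA levels unaltered, so an array reads only the mRNA side of it. A growing gland needs ribosomes for cell growth, and a lactating one for milk protein.

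Values are log2 RMA signals as deposited, so a difference of 1 is a 2-fold difference in signal. Array medians lay between 6.37 and 6.45 and no pair of arrays was identical. The tissue label was checked against defining markers. The epithelial cadherin gene CDH1 and the basal keratin gene KRT5 were above the highest array median in all 11 calves, EPCAM and KRT18 in 10, the luminal keratin gene KRT8 in 4 and the basal keratin gene KRT14 in 3; the smooth muscle actin gene ACTA2 was not analysed here. Adipocyte genes were also present, with ADIPOQ at 8.94 to 11.94. Restricted 2 and restricted 4 stood apart, with adipocyte marker means of 10.04 and 9.46 against 7.07 to 8.53 in the other calves. Their luminal epithelial means were 6.54 and 7.94, against 8.39 to 9.25. Elevated 5 had a mitosis gene mean of 5.80, against 7.94 to 8.57 in the others.

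Ribosomal protein genes lay slightly higher in elevated calves, and 0 of the 69 passed the test. Of the 69 members, 52 had a higher mean in elevated calves and 17 a lower one, with a median log2 difference of 0.059. Over all probe sets 50.8% were higher and the median difference was 0.003. Members are brighter than most probe sets. With a mean of at least 10, 39 of 49 members were higher (median 0.059), against 46.4% of all 1912 such probe sets (median -0.011). The differences of the 69 members ran from -0.40 for RPL22L1 to 0.43 for RPL38. In limma, 0 members had an adjusted p under 0.05, where 2 of 26773 probe sets (0.00747%) did. The smallest adjusted p of a member was 0.308, for RPL8. At an unadjusted p under 0.05, 5 members were higher (7.25% of them, against 4.95% of all probe sets) and 0 were lower (against 5.33%). The counts were 1 higher and 1 lower with the adipocyte mean as a covariate, where 4.68% of all probe sets were higher at that p. They were 2 higher and 1 lower without restricted 2 and restricted 4, where 3.96% of all probe sets were higher at that p. In both of these fits the share of members higher at an unadjusted p under 0.05 was below that of all probe sets. The 5 of the main fit were RPL8, RPL38, RPL4, RPS12 and RPS6. RPL8 was the 1 member whose groups did not overlap, with elevated above restricted, as at 0.53% of all probe sets; 0 members showed the opposite, seen at 0.751%. In bulk tissue, fewer cells of a type and less RNA per cell cannot be told apart.

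**Figure D1:**
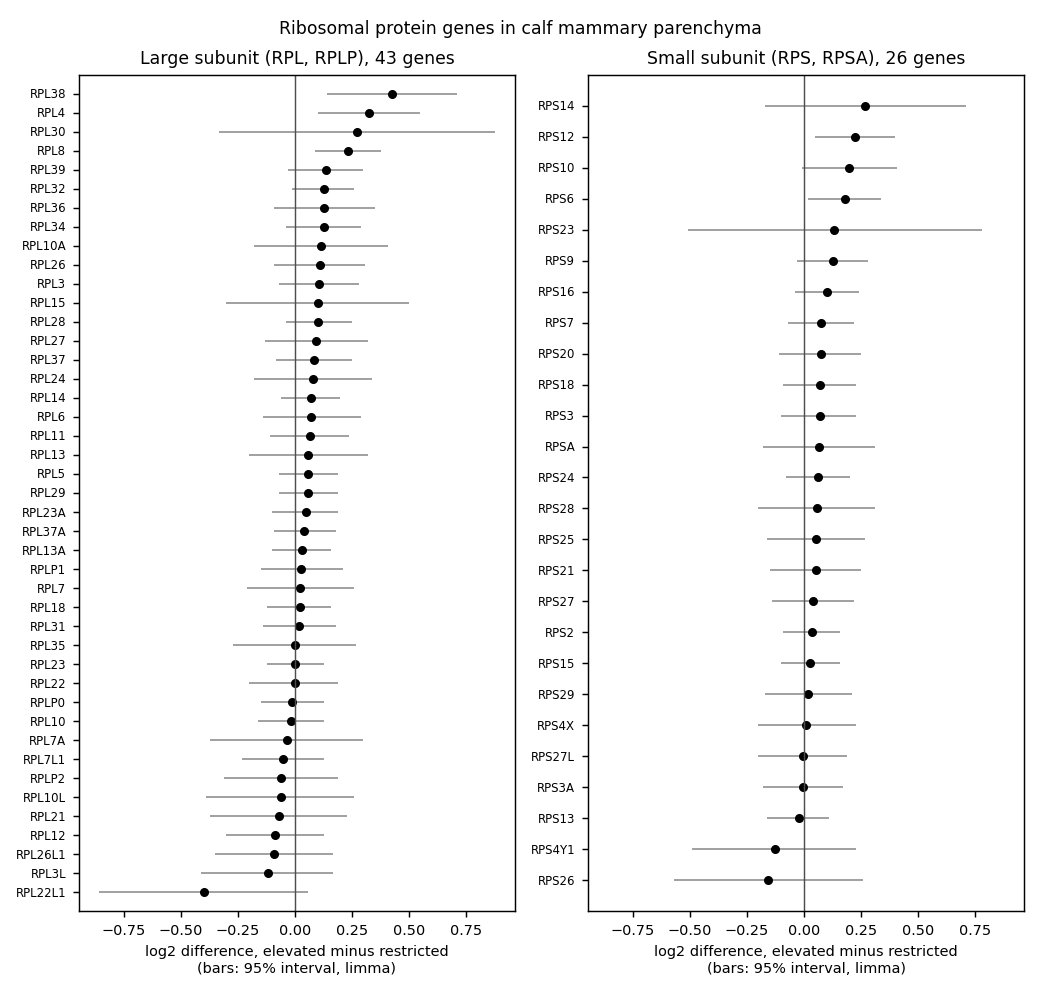
Log2 difference between elevated (n = 6) and restricted (n = 5) calves for each ribosomal protein gene, by subunit, with points for the limma estimate and bars for its 95% interval. Most points lie just right of 0, from -0.40 (RPL22L1) to 0.43 (RPL38), and the bars of 5 genes do not reach 0.

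The large and the small subunit had the same median difference. It was 0.059 over the 43 large subunit genes, of which 31 were higher, and 0.059 over the 26 small subunit genes, of which 21 were higher. At an unadjusted p under 0.05 there were 3 large subunit genes (6.98%) and 2 small subunit genes (7.69%). The mean differences were 0.051 and 0.063. Among members with a mean signal of at least 10, the medians were 0.059 for 31 large and 0.063 for 18 small subunit genes. All 1912 such probe sets had a median of -0.011. No test was made between the subunits, because genes on the same arrays are not replicates.

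Each member was set to its own mean over the 11 calves, and the deviations were averaged by subunit. The means of both subunits had the same sign in 10 of 11 calves. Elevated 4 differed, at -0.011 for the large and 0.042 for the small subunit. The large subunit mean was lowest at -0.018, had a median of 0.015 and was highest at 0.069 in elevated calves. In restricted calves 1 to 5 it was 0.049, -0.085, -0.027, -0.041 and -0.034. Restricted 1 therefore sat among the elevated calves, and the groups overlapped.

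The small subunit mean ran from -0.025 through a median of 0.0255 to 0.071 in elevated calves. In restricted calves 1 to 5 it was 0.039, -0.118, -0.032, -0.059 and -0.002. Restricted 2 was the lowest calf for both subunits, and elevated 1 the highest. The gap between the subunits within a calf, large minus small, stayed between -0.053 in elevated 4 and 0.033 in restricted 2. Its mean was -0.005 ± 0.024 (SD, n = 6) among elevated calves against 0.007 ± 0.024 (SD, n = 5) among restricted calves, so the groups differed by less than this spread.

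The same calves recurred at single genes. Restricted 2 was below the member's own mean at 49 of 69 genes, restricted 3 and restricted 4 at 43 each and restricted 5 at 39, but restricted 1 at 27. Among elevated calves the count was 14 in elevated 6, 17 in elevated 1 and 42 in elevated 3. Restricted 2 held the lowest value of all calves at 18 members and restricted 4 at 12. Elevated 5 held the highest at 14 and elevated 1 at 12.

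The calves lowest in ribosomal protein signal were also those richest in adipocyte markers, restricted 2 and restricted 4. All 26 adipocyte markers listed were measured, 23 of them lower in elevated calves (median -1.007). Without restricted 2 and restricted 4, 20 were lower and the median was -0.258. The list mean ran from 7.07 to 8.53 in elevated and from 7.90 to 10.04 in restricted calves. Of 26 luminal epithelial markers 24 were higher in elevated calves (median 0.704), with list means of 8.39 to 9.25 against 6.54 to 8.88, and 18 were higher without restricted 2 and restricted 4 (median 0.156). Of 23 skeletal muscle markers 21 were higher (median 0.528), with list means of 5.54 to 6.97 against 5.36 to 5.79. Most of this list was dim, with 17 markers below the lowest array median. Its highest mean was in elevated 5, and without that calf 19 were higher (median 0.421). Elevated 3, with the lowest adipocyte mean (7.07), had a negative ribosomal deviation of -0.020. Without restricted 2 and restricted 4, 46 of 69 members were higher (30 large, 16 small), with a median of 0.039 beside 0.005 for all probe sets. With the adipocyte mean as a covariate, 48 were higher and the median was 0.036. The part of adipocyte content in the difference was not tested beyond these values, and that of luminal epithelial and muscle content was not tested.

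**Figure D2:**
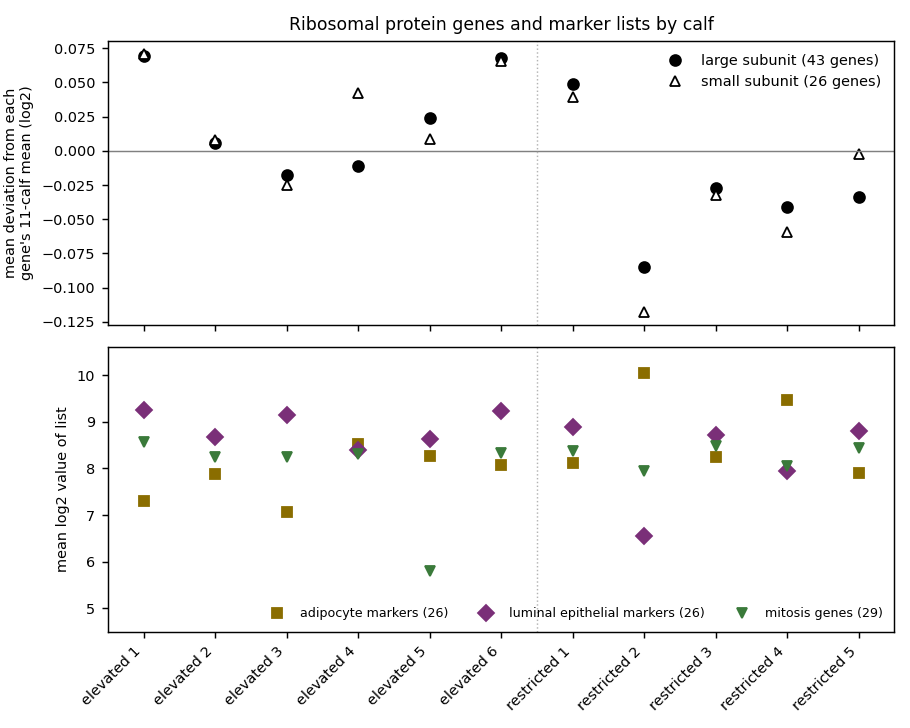
Top, mean log2 deviation of large subunit (43) and small subunit (26) genes from each gene's 11-calf mean, by calf; bottom, mean log2 value of 3 marker lists in the same calves. Restricted 2 is lowest for both subunits (-0.085 and -0.118) and highest for adipocyte markers (10.04), while restricted 1 sits with the elevated calves.

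RPL8 gave the most even separation. Its protein lies beside the centre of the large subunit where peptide bonds form. Elevated calves had a lowest value of 11.49, a median of 11.56 and a highest value of 11.65. Restricted calves 1 to 5 had 11.38, 11.26, 11.40, 11.37 and 11.21. Every elevated calf was above every restricted calf. The log2 difference was 0.23 ± 0.066 (SE; limma adjusted p = 0.308), a 1.18-fold difference, and it stayed at 0.23 without restricted 2 and restricted 4. A second RPL8 probe set, at a level of 4.58, differed by 0.06.

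RPL4, whose protein reaches into the wall of the exit tunnel, had the widest positive difference among members with a mean of at least 10. Elevated calves ran from 11.22 through a median of 11.32 to 11.45. Restricted calves 1 to 5 stood at 11.26, 10.87, 11.03, 10.67 and 11.10. All but restricted 1 were below the elevated range, and restricted 4 and restricted 2 were lowest. The difference was 0.33 ± 0.10 (SE; adjusted p = 0.353), and 0.18 without those 2 calves.

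RPS6 encodes the small subunit protein that S6 kinase phosphorylates when mTORC1 is active, and RPS12 a protein of the small subunit's beak. RPS6 ran from 12.07 through a median of 12.17 to 12.31 in elevated calves, and stood at 12.07, 11.91, 12.15, 11.93 and 11.89 in restricted calves 1 to 5. It differed by 0.18 ± 0.074 (SE; adjusted p = 0.437), with restricted 3 inside the elevated range and restricted 1 level with its lower end.

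RPS12 ran from 10.46 through 10.56 to 10.64 in elevated calves, against 10.47, 10.12, 10.42, 10.29 and 10.33 in restricted calves 1 to 5. Its difference was 0.23 ± 0.078 (SE; adjusted p = 0.375). Only restricted 1 reached the elevated range. Without restricted 2 and restricted 4 the differences were 0.14 for RPS6 and 0.15 for RPS12.

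RPL38, which in the mouse is needed for translation of a subset of Hox mRNAs, had the largest difference of all members but a dim probe set, below the array medians. Elevated calves ran from 4.39 through 4.51 to 4.59, and restricted calves 1 to 5 had 4.33, 3.76, 4.43, 3.72 and 4.15. Restricted 2 and restricted 4 were far below the rest, and restricted 3 was inside the elevated range. The difference was 0.43 ± 0.13 (SE; adjusted p = 0.337), and 0.20 without those 2 calves.

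RPS10, RPL32 and RPS9 completed the 8 members that were higher with the smallest p. RPS10, a beak protein whose gene is mutated in some human Diamond-Blackfan anaemia, averaged 8.48 ± 0.14 (SD, n = 6) with elevated against 8.28 ± 0.16 (SD, n = 5) with restricted feeding. Its difference of 0.20 was 0.22 without restricted 2 and restricted 4. RPL32, of the large subunit, averaged 12.08 ± 0.07 against 11.95 ± 0.06, a difference of 0.13. RPS9, at the entrance of the mRNA channel, averaged 11.55 ± 0.05 against 11.42 ± 0.12, and its difference of 0.13 was 0.067 without those 2 calves. Values overlapped between the groups at all 3 genes, with adjusted p of 0.514, 0.517 and 0.564.

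**Figure D3:**
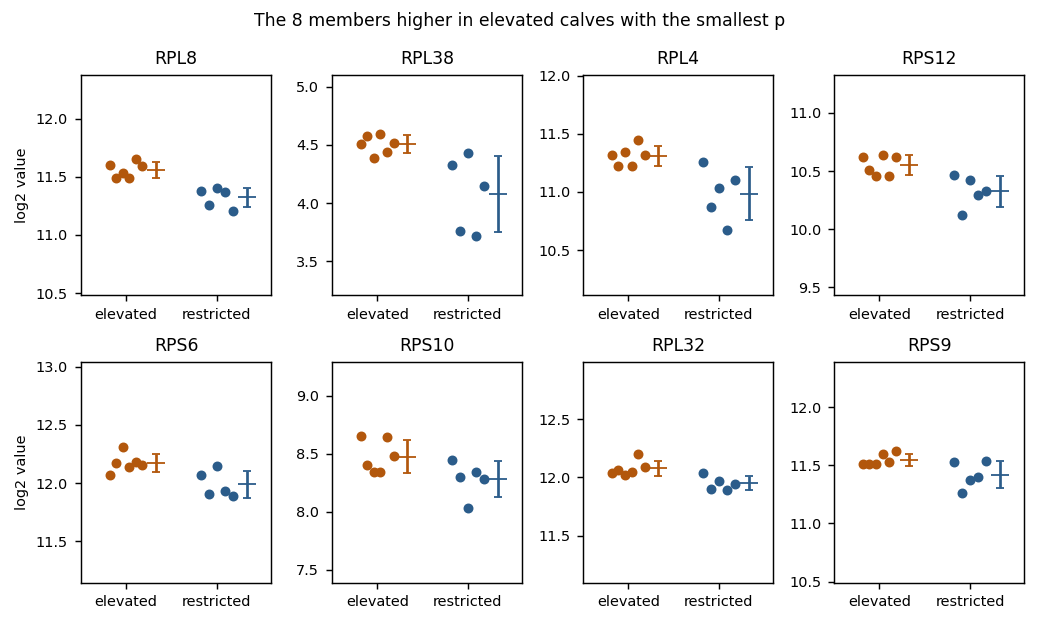
Log2 values by calf of the 8 members higher in elevated calves with the smallest p; points are calves, and bars to the right of them are the mean with SD (n = 6 elevated, n = 5 restricted). Each axis spans the same number of log2 units. RPL8 is the 1 gene without overlap (11.49 to 11.65 against 11.21 to 11.40).

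Among members that were lower in elevated calves, RPL22L1 was the furthest from 0. It encodes a paralogue of RPL22, and in mice its product rises where RPL22 is lost. Elevated calves ran from 9.57 through a median of 10.61 to 10.90, and restricted calves 1 to 5 had 10.78, 10.82, 11.01, 11.02 and 10.77. The lowest value was in elevated 5, and elevated 3 and elevated 4 were inside the restricted range. The difference was -0.40 ± 0.21 (SE; adjusted p = 0.555), a 0.76-fold ratio, and -0.22 without elevated 5. A second probe set of RPL22L1 also differed by -0.44. RPL22 itself averaged 7.94 in both groups.

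Elevated 5 was lowest at further members of this kind. RPS26, whose protein touches the mRNA as it leaves the ribosome, ran from 6.12 through 7.04 to 7.22 in elevated calves, with 6.12 in elevated 5. Restricted calves 1 to 5 had 7.03, 7.38, 6.74, 7.18 and 7.05. Its difference of -0.16 (adjusted p = 0.813) was 0.001 without elevated 5. Dimmer RPS26 probe sets, at levels of 5.45 and 3.91, differed by -0.051 and -0.025. Elevated 5 was not the lowest elevated calf on them, at 5.39 and 3.94. RPS4Y1 is a relative of RPS4X that is Y-linked in humans but not on the Y chromosome in the bovine reference table. RPS4Y1 had its lowest value in elevated 5, at 7.66, against 7.96 to 8.54 in restricted calves. Its difference was -0.13, and -0.016 without elevated 5. Elevated 5 was also the calf with the low mitosis mean of 5.80, and that list's direction rested on it: 29 of 29 measured mitosis genes had lower means in elevated calves (median -0.369), and 3 of 29 without elevated 5 (median 0.085). The part of that calf's low mitosis signal in these differences was not tested.

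Members whose symbol ends in L or L1 are here called paralogues. All 6 had lower means in elevated calves, and none passed the test. RPS4Y1, the relative of RPS4X, was not counted among them, and differed by -0.128 against 0.011 for RPS4X. Each of the 6 is a relative of a parent gene. No sequences were compared, and cross-hybridisation between them is a possibility that was not tested. RPL3L, which replaces RPL3 in striated muscle of mice and humans, differed by -0.12, and by -0.047 without elevated 4, against 0.11 for RPL3. RPL26L1 differed by -0.092, against 0.11 for RPL26; without restricted 2 these were -0.025 and 0.054. RPL10L, a testis gene in mice, differed by -0.062 at a level of 3.56, against -0.017 for RPL10.

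RPL7L1 differed by -0.051 and RPS27L by -0.006, against 0.022 for RPL7 and 0.039 for RPS27. RPS27L is a target of p53 in human cells. The signs of RPL3L, RPL22L1 and RPL26L1 were negative in all 23 fits and that of RPL7L1 in 21. That of RPL10L was negative in 21 of 22 and that of RPS27L in 18. Some of these fits altered only the variance model or the probe sets kept, so their estimate could not differ from the main one. Differences between a parent and its paralogue were not tested, and the 95% interval of each of the 6 paralogues held 0. Skeletal muscle marker means ran from 5.54 to 6.97 in elevated and from 5.36 to 5.79 in restricted calves, highest in elevated 5, where RPL3L was 4.84. The highest RPL3L value, 5.00, was in restricted 5.

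**Figure D4:**
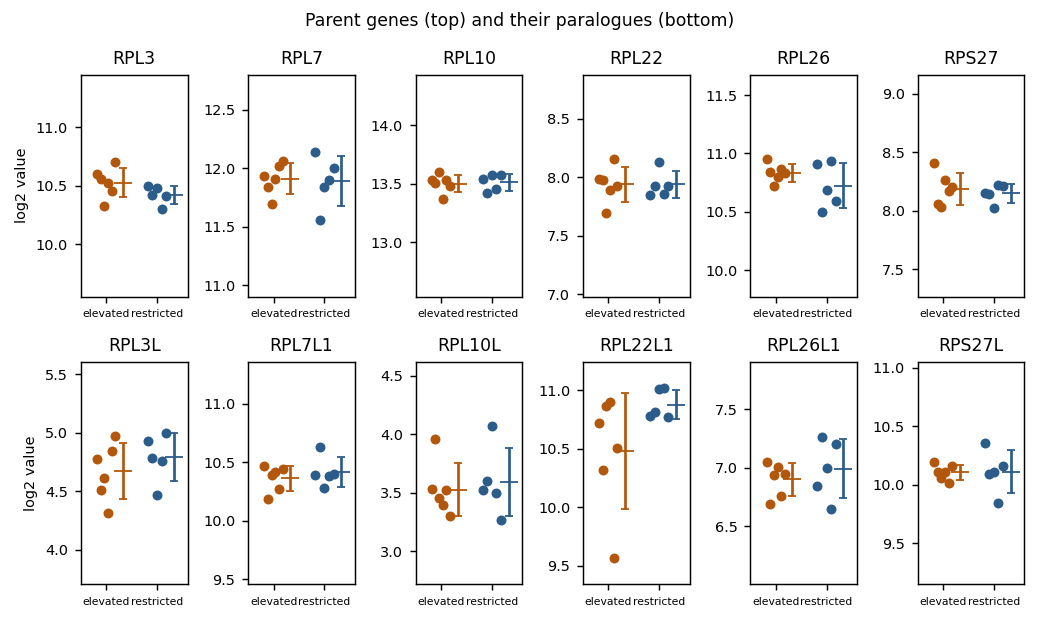
Log2 values by calf of 6 parent genes (top) and their paralogues (bottom), with mean and SD (n = 6 elevated, n = 5 restricted); each axis spans the same number of log2 units, and levels of different probe sets are not comparable. All 6 paralogues average lower in elevated calves, and elevated 5 is the low point of RPL22L1 at 9.57.

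Members were next taken by their place in the ribosome. Of the 4 genes of the stalk, which recruits elongation factors, RPLP1 was measured higher and RPLP0, RPLP2 and RPL12 lower in elevated calves. RPLP0 differed by -0.012 (95% interval -0.15 to 0.13), RPLP1 by 0.029 (-0.15 to 0.21), RPLP2 by -0.058 (-0.31 to 0.19) and RPL12 by -0.086 (-0.30 to 0.13), or -0.031 without restricted 4. None passed the test. Brighter RPL12 probe sets that also name another entry, at levels of 12.78 and 13.13, differed by -0.051 and -0.028. RPLP2 was 12.89 in restricted 2 and 12.27 in restricted 3, with the elevated calves from 12.34 to 12.77. Its difference was 0.039 without restricted 2 and restricted 4.

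RPL5 and RPL11 form a particle with 5S RNA that, when left over, binds MDM2 and so steadies p53. They differed by 0.059 ± 0.060 and 0.065 ± 0.080 (SE), and RPL11 by 0.124 without elevated 3. Around the tunnel exit, 6 of 8 listed genes were measured and 5 were higher, with a median of 0.035. RPL39, a small protein of that rim, differed by 0.14 and RPL26 by 0.11. Of 10 genes listed for Diamond-Blackfan anaemia, 7 were members and 6 of those were higher, with a median of 0.065. RPSA, which also serves as a laminin receptor, differed by 0.066, averaging 10.50 ± 0.23 (SD, n = 6) against 10.44 ± 0.10 (SD, n = 5), and by 0.003 without elevated 4.

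Ribosomal protein genes varied little between calves. The median SD within groups was 0.118 over members, 0.133 for the large and 0.116 for the small subunit, against 0.218 over all probe sets. Bright probe sets vary less, and among those with a mean of at least 10 the medians were 0.101 for 49 members and 0.145 for all 1912. In 23 members the SD was under 0.1. The smallest, 0.039, was that of RPS2, which was named once its value was known, and the largest was that of RPS23. Of the members 71% had a mean of at least 10, as did 7.14% of all probe sets. Near the top of the array's range (highest value 14.20) differences can be compressed. Signal also depends on the probes, so no order between genes is drawn from it.

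The 4 most variable members were RPS23, RPL30, RPL22L1 and RPS14. RPS23, whose protein sits at the decoding site, ran from 4.97 through 5.17 to 5.44 in elevated calves. Restricted calves 1 to 5 had 5.48, 3.89, 5.62, 4.56 and 5.64, so the restricted calves lay on both sides of the elevated range. The difference was 0.13, and -0.41 without restricted 2 and restricted 4.

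RPL30, of the large subunit, was 5.41 in restricted 2 and 6.66 to 7.20 in the other 10 calves. Its difference of 0.27 (adjusted p = 0.771) turned to -0.037 without restricted 2 and -0.14 without restricted 2 and restricted 4. RPS14, lost with the deleted arm in the human 5q- syndrome, ran from 3.67 through 4.02 to 4.65 in elevated calves, and restricted calves 1 to 5 had 3.82, 3.66, 3.53, 4.40 and 3.52. Its difference was 0.27 (adjusted p = 0.683), 0.43 without restricted 2 and restricted 4, and 0.150 without elevated 5.

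RPS23, RPS14 and RPL38 were among 6 members whose mean over the 11 calves was below the lowest array median, with RPL24 (named after its values were seen), RPL3L and RPL10L. RPS23, RPS14, RPL38 and RPL24 encode proteins of every ribosome, so low signal at these probe sets need not mean little transcript, and differences in dim signal are compressed by RMA. With the dimmest 25% of probe sets left out, 50 of the 66 remaining members were higher, with a median of 0.058.

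A second measure came from genes with more than 1 probe set. There were 15 such members with 34 probe sets. At 11 all probe sets had the same sign, and at RPL7, RPL10, RPL21 and RPS13 the signs were mixed. RPL7 differed by 0.022 on its brighter probe set and by -0.14 on the other. RPL5 differed by 0.059 and 0.04, and RPS27L by -0.006 and -0.15. A pair of RPL23A probe sets held identical values and is no independent measure.

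A further 19 probe sets named a ribosomal protein gene together with another entry and were left out of the members. They carried 8 genes that had no probe set of their own, RPL9, RPL17, RPL19, RPL27A, RPL35A, RPL36A, RPS15A and RPS19. Of the 19 probe sets 15 were higher in elevated calves, with a median of 0.051 and a range from -0.09 to 0.20, and 4 of them, all for RPL39, held the same values. FAU, which encodes a small subunit protein under another symbol, differed by 0.037.

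Other genes of ribosome production and translation were counted in the same way. Of 23 measured genes with other 5′ TOP mRNAs, mainly translation factors, 12 were higher, with a median of 0.015. At an unadjusted p under 0.05, 1 was higher (4.35%, against 4.95% of all probe sets) and 0 were lower. The 1 gene was BTF3, of the complex that shields new peptide chains, which averaged 11.58 against 11.39 (difference 0.19, adjusted p = 0.374). Its elevated values all lay above the restricted ones, as at 0.53% of all probe sets. The initiation factor gene EIF3F differed by -0.14. None of the 23 passed the test.

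Of 57 ribosome biogenesis genes, 25 were higher, with a median of -0.023, and 3 were lower at an unadjusted p under 0.05 (5.26%, against 5.33% of all probe sets) with 0 higher. SBDS, which helps free the new large subunit for use, differed by -0.46 ± 0.19 (SE; adjusted p = 0.449), but by -0.305 without restricted 2 and -0.120 without restricted 2 and restricted 4. NMD3, the export adaptor of the large subunit, differed by -0.22 ± 0.077 (SE; adjusted p = 0.388). Of 16 genes listed for RNA polymerase I, which transcribes ribosomal RNA, 5 were higher, with a median of -0.032. The list also held the regulator MYC and POLR2H, POLR2K and POLR2L, whose products are not confined to that polymerase. POLR2K and TAF1B had the smallest p there, at -0.20 and -0.22. Neither passed the test (limma adjusted p = 0.544 and 0.709). POLR2K differed by -0.124 without elevated 2. TAF1B differed by -0.061 without restricted 3, -0.132 without elevated 4 and -0.339 without restricted 2 and restricted 4.

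Of 22 genes for mTORC1 and translation control, 7 were higher, with a median of -0.027. At an unadjusted p under 0.05, 1 was higher (4.55%, against 4.95% of all probe sets) and 2 were lower (9.09%, against 5.33%). EEF2K, whose kinase slows elongation, differed by 0.49 ± 0.14 (SE, adjusted p = 0.325). Its elevated values all lay above the restricted ones, as at 0.53% of all probe sets. The EEF2K difference was 0.385 without elevated 5 and 0.381 without restricted 2 and restricted 4. RHEB, the GTPase that activates mTORC1, differed by -0.26 ± 0.085 (SE, adjusted p = 0.356), and by -0.193 without restricted 2 and restricted 4. Neither passed the test.

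Mitochondrial ribosomal protein genes gave 26 of 77 higher, with a median of -0.048. Their large subunit (48 genes) had a median of -0.049 and their small subunit (29 genes) one of -0.047. At an unadjusted p under 0.05, 0 were higher and 2 were lower (2.6%, against 5.33% of all probe sets). These were MRPL19, which differed by -0.27 (adjusted p = 0.396), and MRPS10, which differed by -0.23 (adjusted p = 0.423). Neither passed the test, and they differed by -0.156 and -0.133 without restricted 2 and restricted 4. The difference between the mitochondrial and the other gene sets was not tested, and their genes were measured on the same 11 arrays.

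**Figure D5:**
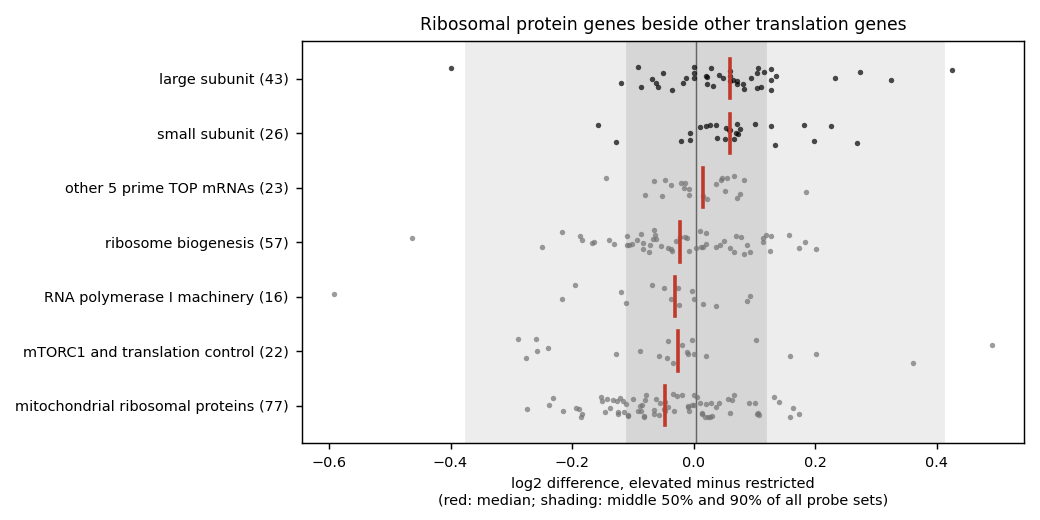
Log2 differences of ribosomal protein genes by subunit and of 5 further gene lists, one point per gene, with red lines for medians and shading for the middle 50% and 90% of all probe sets. The subunit medians are both 0.059, and the mitochondrial ribosomal proteins lie lowest at -0.048.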

How the data were processed

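Biotin-labelled RNA from 11 calves, 6 elevated and 5 restricted, was read on 1-colour arrays (100 ng per sample, RNA integrity number above 7.0, per the labels' protocols). The authors deposited log2 RMA values per probe set; the submitters' processing notes name RMA without giving its settings, and the log2 scale was read from the values. Gene symbols came from the platform annotation. By gene number, 63 members kept their symbol in the reference table of assembly ARS-UCD2.0, and the other 6 were found by symbol. No coordinates or sequences are used here.

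The difference, elevated minus restricted, was fitted with limma 3.58.1 (lmFit, eBayes) in R 4.3.3 over all 26773 probe sets without covariate, with Benjamini-Hochberg adjustment at 0.05. Intervals are at 95%. Calves are separate animals, numbered as in their titles, and their number limits the precision. Members, lists and tests were chosen with earlier results of these data known. Named were members past the threshold, the 8 in each direction with the smallest p, the 4 most variable, a set always given, and 2 genes of each other list; those outside this rule are marked. Gene lists are described by counts and medians without a test. On simulated data with the spread of this comparison over 26773 probe sets, it recovered 43.3% of 67 probe sets with 1.5-fold changes and 97% of 66 with 4-fold changes, at 9 false calls among 151. The subunit differences here are far smaller than these. The changed probe sets were drawn at random from the whole array, with noise independent between them. Members varied less than the whole array and were measured in the same calves. These rates therefore do not describe the members or the subunit medians.

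The alternatives covered median centring, quantile normalisation, filters on dim and on unnamed probe sets, other variance models, array weights, the adipocyte mean as a covariate, the replicate number as a block, a threshold of 0.1, averaging the probe sets of a gene, other memberships, and leaving out calves. Figures used matplotlib 3.10.9.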

Additional observations from a re-analysis of the deposited data

Results flagged for a closer look

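Within-group extremes were looked for at 33 named members and at both subunit means, in 70 groups of 5 or 6 calves. Chance marks about 1 in 20 groups not chosen by their values, and 5 were found. Some members were named for their spread or p in these same data, so that rate need not hold here. RPL11 was 10.95 in elevated 3, against 11.26 to 11.35 in the other elevated calves. RPS26 was 6.12 in elevated 5 on its brightest probe set, against 6.93 to 7.22, but elevated 5 was not lowest on its dimmer probe sets. RPL10L was 3.96 in elevated 2, against 3.30 to 3.53. RPL30 was 5.41 in restricted 2, where its group otherwise ran from 6.66 to 7.17. RPL22 was 8.13 in restricted 3, against 7.85 to 7.93. Each value lay further from its nearest neighbour than Dixon's 95% limit allows for its group's range. The causes were not tested.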

How the results depend on the processing

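In the fits run, 0 members passed the threshold. The median difference of the members was 0.037 to 0.072 with 1 calf left out, that of the large subunit 0.039 to 0.066 and that of the small subunit 0.034 to 0.079, and the number of members higher was 47 to 55. Over all probe sets the count past the threshold was 2; it was 0 to 12 with 1 calf left out, 25 without restricted 2 and restricted 4, 4 with array weights, 1 among probe sets with 1 symbol, 0 with an unmoderated model, 0 with the adipocyte covariate and 0 with the replicate block. Same-numbered calves did not deviate together throughout (correlations of 0.211, 0.0527, 0.102, 0.084 and -0.147), so the numbers were not taken as pairs; with the replicate block 53 members were higher and their median was 0.042.

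Of 33 named members, 20 kept their sign in every fit. Where only the threshold, the variance model or the probe sets kept were altered, the estimate could not differ from the main fit. Signs turned for RPL10 (0.005) and RPL7 (-0.057) with the mean over probe sets, RPS27L (0.016) with quantile normalisation, RPL7 (-0.041) and RPS23 (-0.110) with array weights, and RPL22 (0.003) and RPL7 (-0.009) with the replicate block. With the adipocyte covariate they turned for RPL22 (0.020), RPL30 (-0.175), RPL7 (-0.049), RPLP2 (0.063) and RPS23 (-0.448). Without restricted 2 and restricted 4 they turned for RPL30 (-0.136), RPL7 (-0.084), RPL7L1 (0.006), RPLP2 (0.039) and RPS23 (-0.407). With 1 calf left out the ranges of those that turned were -0.041 to 0.010 (RPL10), -0.149 to 0.056 (RPL10L), -0.045 to 0.047 (RPL22), -0.037 to 0.404 (RPL30), -0.060 to 0.084 (RPL7), -0.084 to 0.002 (RPL7L1), -0.036 to 0.012 (RPLP0), -0.014 to 0.065 (RPLP1), -0.144 to 0.011 (RPLP2), -0.152 to 0.285 (RPS23), -0.242 to 0.001 (RPS26), -0.005 to 0.071 (RPS27) and -0.075 to 0.056 (RPS27L). The causes were not tested.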
